A study of Mus musculus with 12 samples.

Results

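Mitochondria of heart muscle export energy through a short chain of proteins, and the genes of that chain were followed here in cardiomyocytes with and without the intermediate filament protein desmin. The 8 genes were chosen by symbol: the outer membrane channels Vdac1, Vdac2 and Vdac3, the creatine kinases Ckm, Ckmt2 and Ckb, the creatine transporter Slc6a8, and Ppif. They are 8 of the 21493 genes listed in every count table. The material was poly-A RNA of cardiomyocytes from hearts of mice aged 3 months, which were isolated by enzymatic perfusion and harvested at once. The mice had the genotype Des+/+ or Des-/- and had swum as an exercise stress (swim) or had not (non-swim), which gave 4 groups of 3 libraries. Per the methods, a library pooled the cells of several mice of either sex, and mice of both genotypes carried a GFP transgene driven by the α-myosin heavy chain promoter of cardiomyocytes, which the sample labels do not name. The mice were of a 129SV background. A replicate is therefore a pool of animals, and the p-values below measure the spread between such pools.

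VDAC proteins are the pores through which ATP, ADP, phosphate and other metabolites cross the outer mitochondrial membrane. Mitochondrial creatine kinase (Ckmt2 in striated muscle) sits between the membranes and uses ATP to make phosphocreatine, which cytosolic creatine kinase turns back into ATP near the myofibrils and ion pumps. Muscle-type creatine kinase is encoded by Ckm, and Ckb encodes the brain-type enzyme, which the developing heart uses and many other cell types express. Slc6a8 brings creatine into the cell, and Ppif encodes cyclophilin D, a matrix protein that promotes opening of the permeability transition pore.

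In the annotation of GRCm38 all 8 were protein-coding genes. Vdac1 (ENSMUSG00000020402) lies on chromosome 11 from 52360860 to 52389397, Vdac2 (ENSMUSG00000021771) on chromosome 14 from 21825238 to 21845879, and Vdac3 (ENSMUSG00000008892) on chromosome 8 from 22577075 to 22593813. Ckm (ENSMUSG00000030399) lies on chromosome 7 from 19404776 to 19422841, Ckmt2 (ENSMUSG00000021622) on chromosome 13 from 91853387 to 91876885, and Ckb (ENSMUSG00000001270) on chromosome 12 from 111669361 to 111672338. Slc6a8 (ENSMUSG00000019558) lies on chromosome X from 73673150 to 73682502, and Ppif (ENSMUSG00000021868) on chromosome 14 from 25694154 to 25700468. Exons of 4 members share bases with a gene on the opposite strand: 25 bases for Vdac2 (Comtd1), 451 for Ckm (A930016O22Rik), 84 for Ckmt2 (1700119I11Rik) and 921 for Ppif (Ppifos). Reads were counted by strand according to the study's methods, whereas the labels name a kit that does not keep strand.

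RefSeq promoter sequences (GRCm38.p6, from 250 bases before to 50 bases after the transcription start) were at hand for 5 of the 8 genes: Vdac1, Ckm, Ckmt2, Ckb and Ppif. Those of the 3 creatine kinases are shown because the levels of Ckm and Ckmt2 went one way in Des-/- libraries and that of Ckb the other. Capitals mark matches to the E-box (CANNTG, the site of myogenic and other helix-loop-helix factors) and to the site of the muscle factor MEF2. The Ckm window is chr7:19410844-19411143 on the plus strand, the Ckmt2 window chr13:91876836-91877135 on the minus strand, and the Ckb window chr12:111672289-111672588 on the minus strand.
Ckm: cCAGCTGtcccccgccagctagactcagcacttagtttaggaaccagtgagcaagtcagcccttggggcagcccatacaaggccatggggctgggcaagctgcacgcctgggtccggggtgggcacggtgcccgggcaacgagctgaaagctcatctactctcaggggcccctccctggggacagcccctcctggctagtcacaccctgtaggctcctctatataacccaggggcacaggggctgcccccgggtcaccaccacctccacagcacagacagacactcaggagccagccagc
Ckmt2: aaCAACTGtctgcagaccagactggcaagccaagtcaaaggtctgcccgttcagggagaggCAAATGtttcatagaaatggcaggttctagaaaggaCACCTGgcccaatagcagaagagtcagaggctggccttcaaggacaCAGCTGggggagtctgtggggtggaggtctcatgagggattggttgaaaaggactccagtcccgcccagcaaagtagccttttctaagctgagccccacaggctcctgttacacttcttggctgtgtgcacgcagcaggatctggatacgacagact
Ckb: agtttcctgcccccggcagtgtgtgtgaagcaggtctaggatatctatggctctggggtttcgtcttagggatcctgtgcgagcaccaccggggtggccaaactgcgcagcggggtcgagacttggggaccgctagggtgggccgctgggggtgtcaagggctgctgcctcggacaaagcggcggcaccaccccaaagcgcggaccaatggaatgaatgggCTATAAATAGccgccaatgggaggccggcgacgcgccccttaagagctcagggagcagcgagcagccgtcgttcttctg
The Ckmt2 window held 4 E-boxes, the Ckm window 1 and the Ckb window 0, while 72.3% of 32851 mouse promoter windows of this length held at least 1. The Ckb window alone of these 5 had a match to the MEF2 site, beginning at position -29 from the start, and 3.19% of all windows had one. That stretch, CTATAAATAG, also holds the letters of a TATA box (TATAAATA), and the search cannot tell the 2 apart. The Ckb window also held 22 CpG pairs against 7 for Ckm and 4 for Ckmt2, with a median of 7 over all windows. Vdac1 had 1 E-box and 24 CpG pairs, and Ppif had 0 E-boxes and 31 CpG pairs. Both strands were searched, and a match is a run of letters and no evidence of binding.

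The depth, as reads in genes, was 8935126 to 12072443 in Des+/+ non-swim, 7425291 to 9440967 in Des+/+ swim, 8058801 to 11206142 in Des-/- non-swim and 4320819 to 6521963 in Des-/- swim libraries. The unit of level is CPM, the reads of a gene as a proportion of the TMM-scaled library. Des itself was at 1472, 3647 and 1982 CPM in the Des+/+ non-swim libraries and at 72.2, 56.2 and 50.3 in the Des-/- non-swim libraries, and the swim groups held 973 to 1636 and 91.3 to 101. Replicate 3 of both Des-/- groups stood apart on the first principal component (48.9% of the variance). The 10 cardiomyocyte markers were detected in every library, but their summed level was 55202 to 87107 CPM in Des+/+ non-swim, 28396 to 48405 in Des+/+ swim, 5786 to 24704 in Des-/- non-swim and 15109 to 25553 in Des-/- swim libraries. The 8 fibroblast markers summed to 3177 to 3682, 2179 to 3190, 7960 to 39661 and 3638 to 13416 CPM in the same order, and the 8 macrophage markers to 196 to 299, 225 to 275, 365 to 3965 and 202 to 1221. None of these markers was at 0 in any library. In bulk RNA, fewer cardiomyocytes and less of a transcript per cardiomyocyte cannot be told apart.

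Without swimming, 7 of the 8 genes were lower in Des-/- than in Des+/+ libraries and Ckb was higher. The falls were steepest for Ckm and Ckmt2, to 20.5% and 20.8% of the Des+/+ level, followed by Ppif and Vdac1 at 23.6% and 27.5%, and were smallest for Slc6a8 and Vdac2 at 43.6% and 42.5%. All 8 passed the test (edgeR quasi-likelihood, adjusted p under 0.05 over 13158 genes), while 18.0% of all genes were called lower and 14.0% higher. The median log2 change of the 8 was -1.61 against 0.04 over all genes tested. For 7 of the 8, the libraries of the genotypes did not overlap, which held for 47.9% of all genes. In the same comparison 10 of 10 cardiomyocyte markers were called lower (median log2 change -2.13), and 8 of 8 fibroblast and 7 of 8 macrophage markers higher (medians 2.03 and 2.94). Of the other lists, 5 of 5 red blood cell markers were called higher (median 3.07), and 0 of 8 endothelial and 0 of 6 mural markers were called (medians -0.01 and -0.44). Their part in the members' changes was not tested.

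**Figure D1:**
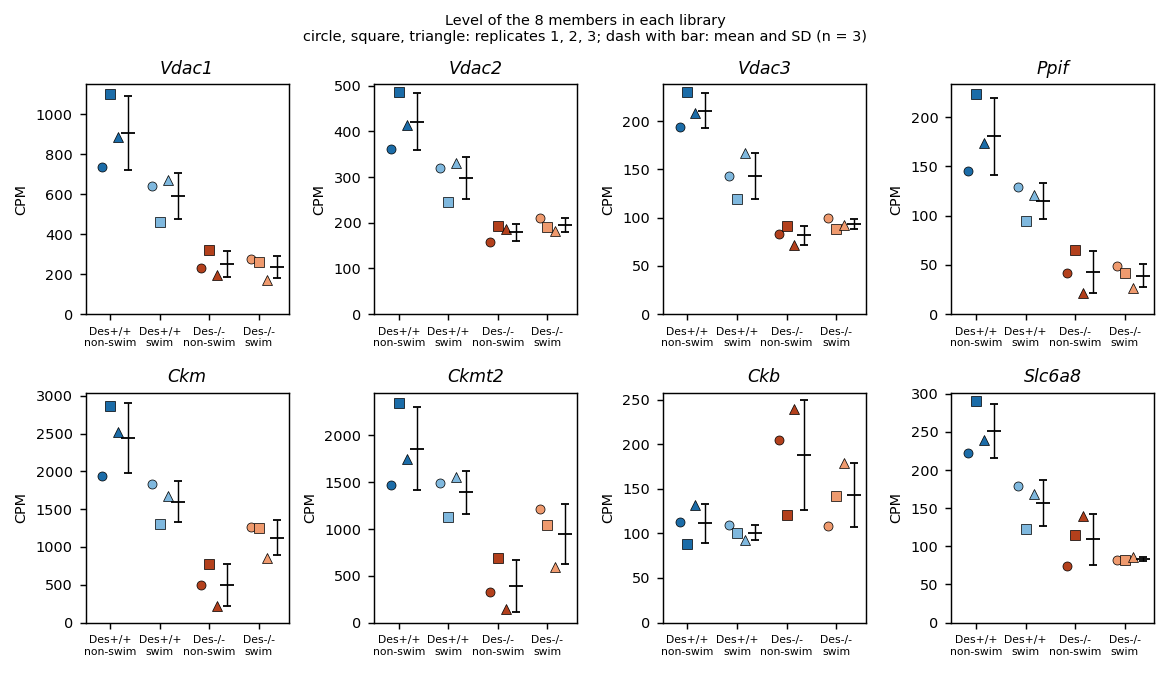
Level of each gene in CPM (linear axis from 0) in the 12 libraries, by group; symbols are replicates 1 to 3, and the dash with its bar is the mean and SD (n = 3). For Ckm, the Des-/- non-swim libraries lie between 224 and 778 CPM and the Des-/- swim libraries between 859 and 1258, whereas for Vdac1 the Des-/- groups lie at 195 to 322 and 171 to 275.

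Among the channels, Vdac1, the most abundant VDAC of most tissues, was at 734, 1102 and 886 CPM in Des+/+ and at 232, 322 and 195 CPM in Des-/- non-swim libraries. Every Des-/- library was below every Des+/+ library, and the log2 change was -1.86 (SE 0.26, edgeR adjusted p 0.000969). Vdac2, the isoform that restrains and anchors the cell death proteins BAK and BAX, was at 363, 487 and 414 against 158, 193 and 186 CPM. Its log2 change was -1.23 (SE 0.17, edgeR adjusted p 0.000903), again with no overlap. Vdac3, the least abundant of the 3 here, was at 194, 230 and 208 against 82.8, 91.2 and 71.5 CPM. Its log2 change was -1.37 (SE 0.15, edgeR adjusted p 0.000704).

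The creatine kinases of muscle had the largest fitted falls of the 8 and a wide spread between the Des-/- pools. Ckm was at 1941, 2864 and 2515 CPM in Des+/+ and at 496, 778 and 224 CPM in Des-/- non-swim libraries, a log2 change of -2.29 (SE 0.39, edgeR adjusted p 0.00176). Ckmt2 was at 1476, 2345 and 1750 against 324, 689 and 144 CPM, a log2 change of -2.27 (SE 0.48, edgeR adjusted p 0.00527). For both, replicate 2 was the highest and replicate 3 the lowest Des-/- library, and even the highest lay below all Des+/+ libraries. Replicate 3 was also the library with the lowest cardiomyocyte marker sum (5786 CPM) and the highest fibroblast marker sum (39661 CPM).

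Ckb ran the other way, at 113, 88.2 and 132 CPM in Des+/+ and 204, 120 and 240 CPM in Des-/- non-swim libraries. The groups overlapped, since replicate 2 of Des-/- lay below replicate 3 of Des+/+, and the log2 change was 0.76 (SE 0.26, edgeR adjusted p 0.0414). This call lay near the threshold. It held in 3 of the 12 fits that left out 1 library, namely Des-/- non-swim replicate 2, Des-/- swim replicate 1 or Des-/- swim replicate 3. It was lost without any of the other 9. The log2 changes ran from 0.55 to 1.00 and the edgeR adjusted p-values from 0.00697 to 0.152. Leaving out Des+/+ swim replicate 1, 2 or 3 or Des-/- swim replicate 2, which are outside this comparison, left the change at 0.76. The edgeR adjusted p was then 0.0545 to 0.0559. The call was also lost when only the 6 libraries compared were fitted (edgeR adjusted p 0.0813) and without replicate 3 of both Des-/- groups (adjusted p 0.0724).

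Slc6a8 was at 223, 291 and 240 CPM in Des+/+ and at 73.7, 114 and 140 CPM in Des-/- non-swim libraries, with a log2 change of -1.20 (SE 0.22, edgeR adjusted p 0.00263). Unlike Ckm and Ckmt2, it was highest in replicate 3 of Des-/-. Ppif was at 146, 223 and 173 against 41.3, 65.0 and 21.8 CPM, with a log2 change of -2.08 (SE 0.35, edgeR adjusted p 0.00175). The calls of the 7 lower genes held in all 12 fits that left out 1 library and under every other alternative except a scaling to the cardiomyocyte markers, which is described below.

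After swimming, 5 of the 8 genes were called, all lower in Des-/- libraries: Vdac1, Vdac2, Vdac3, Slc6a8 and Ppif. The fitted changes of Ckm, Ckmt2 and Ckb did not pass the test. Vdac1 was at 640, 461 and 671 CPM in Des+/+ and at 275, 260 and 171 CPM in Des-/- swim libraries (log2 change -1.33, SE 0.26, edgeR adjusted p 0.0154). Ppif was at 129, 94.8 and 121 against 48.6, 42.2 and 26.5 CPM (log2 change -1.56, SE 0.35, edgeR adjusted p 0.0224). Slc6a8 was at 179, 123 and 168 against 81.8, 81.8 and 86.4 CPM (log2 change -0.91, SE 0.22, edgeR adjusted p 0.0282). None of these 3 genes overlapped between the genotypes.

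Vdac2 and Vdac3 were called with smaller changes. Vdac2 was at 320, 245 and 331 against 212, 190 and 182 CPM (log2 change -0.62, SE 0.16, edgeR adjusted p 0.0368), and Vdac3 at 143, 119 and 166 against 99.3, 88.4 and 92.2 CPM (log2 change -0.61, SE 0.15, edgeR adjusted p 0.0279). Ckm was at 1834, 1303 and 1669 against 1258, 1254 and 859 CPM, which did not overlap but gave a log2 change of -0.51 (SE 0.37, edgeR adjusted p 0.373). Ckmt2 overlapped, at 1488, 1132 and 1555 against 1212, 1044 and 590 CPM (log2 change -0.55, SE 0.46, edgeR adjusted p 0.441). Ckb overlapped too, at 110, 101 and 92.6 against 108, 142 and 179 CPM (log2 change 0.50, SE 0.26, edgeR adjusted p 0.207).

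In total 5 of the 8 were called lower and 0 higher after swimming, with 5.57% of all genes called lower, a median log2 change of -0.62 against 0.02 over all genes, and 6 of 8 without overlap where 35.9% of all genes had none. Of the 10 cardiomyocyte markers, 1 was called lower in this comparison (median log2 change -0.76), and 0 of 8 fibroblast markers were called (median 1.18). The count of 5 depended on single libraries. It was 0 without Des+/+ swim replicate 3, 1 without Des+/+ swim replicate 1, Des-/- swim replicate 2 or Des-/- swim replicate 3, and 2 without Des-/- swim replicate 1, while leaving out any other library gave 4 or 5. The calls over all genes, 1392 with all libraries, fell in the same fits to 74, to 561, 637 and 664, and to 505, so the drop was not particular to these 8. Vdac1 remained called in 11 of these 12 fits, Ppif in 8, Vdac3 and Slc6a8 in 7 and Vdac2 in 6. All 5 fold changes kept their direction in all 12 fits.

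**Figure D2:**
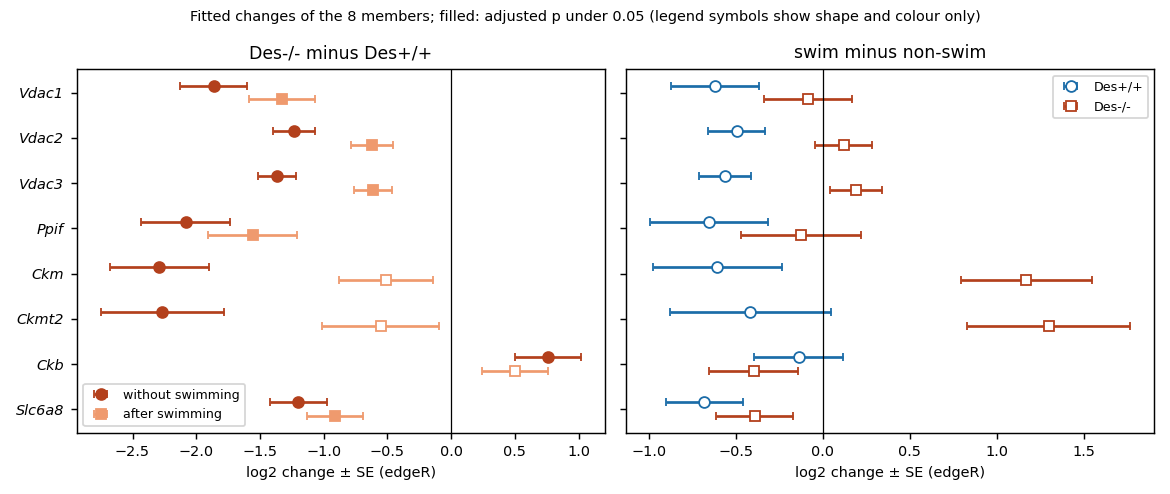
Log2 change with its SE (edgeR) for the 8 genes, Des-/- minus Des+/+ on the left and swim minus non-swim on the right; filled symbols have an adjusted p under 0.05. Without swimming all 8 symbols are filled, after swimming 5 are, and on the right none is, with Ckm and Ckmt2 at 1.17 and 1.30 in Des-/- and at -0.61 and -0.42 in Des+/+.

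Swimming itself gave no call among the 8 genes in either genotype. In Des+/+ libraries all 8 fitted values were negative, from -0.14 for Ckb to -0.68 for Slc6a8, with a median of -0.58 against -0.08 over all genes. For 6 of the 8 the swim libraries all lay below the non-swim libraries, and 31.3% of all genes had no overlap in either direction. The smallest unadjusted p was that of Vdac3 (0.00273, edgeR adjusted p 0.100), and only 0.0912% of all genes were called. At an unadjusted p under 0.05, 2697 of 13158 genes passed. The summed cardiomyocyte markers moved with these genes, from 55202 to 87107 CPM without to 28396 to 48405 CPM after swimming. All 5 red blood cell markers had higher fitted values after swimming (median log2 change 2.53, 0 called), with sums of 179 to 546 against 1390 to 2175 CPM. Uniquely aligned reads that the counting assigned to no gene made up 34.0 to 39.3% of the unique ones without and 45.9 to 50.4% after swimming. Such reads need not lie outside genes, since introns and the strand not counted also fall in this class. The part of these measures in the result was not tested.

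In Des-/- libraries the 2 muscle creatine kinases stood at higher levels after swimming. Ckm lay at 496, 778 and 224 CPM without and at 1258, 1254 and 859 CPM after swimming, with no overlap, a log2 change of 1.17 (SE 0.37) and an unadjusted p of 0.00922 (edgeR adjusted p 0.203). Ckmt2 lay at 324, 689 and 144 against 1212, 1044 and 590 CPM, where the highest non-swim library exceeded the lowest swim library. Both genes were higher after swimming in all 3 pairs of libraries with the same replicate number, which for Ckm follows from the lack of overlap. The fit was not paired, and the numbers need not mark pairs. The log2 change of Ckmt2 was 1.30 (SE 0.47), with an unadjusted p of 0.0174 (edgeR adjusted p 0.232). The other 6 genes changed by -0.40 to 0.19 on the log2 scale, with edgeR adjusted p-values from 0.382 to 0.886. Here 0.0228% of all genes were called and 19.4% had no overlap, which among the 8 was true of Ckm alone. The 10 cardiomyocyte markers had positive fitted values as well, with a median of 0.62 and 0 called. The 8 fibroblast, 8 macrophage and 5 red blood cell markers all had negative ones (medians -1.04, -1.67 and -1.07, 0 called). The share of unique reads assigned to no gene was 34.2 to 52.3% without and 57.2 to 64.5% after swimming. The part of these measures in the levels of Ckm and Ckmt2 was not tested.

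The difference between the swimming changes of the genotypes was tested as an interaction. It was 1.78 (SE 0.53) for Ckm and 1.71 (SE 0.66) for Ckmt2 on the log2 scale, and neither was called (edgeR adjusted p 0.199 and 0.245). Vdac3 and Vdac2 had values of 0.75 and 0.61 (edgeR adjusted p 0.199 and 0.240). Of all 13158 genes edgeR called 0 (0%) for this term, with 2148 at an unadjusted p under 0.05. DESeq2 called 2 of the 8 for the interaction (Vdac3 and Ckm), beside 318 or 3.96% of the genes it adjusted. It called 1 of the 8 for swimming in Des+/+ (Vdac3, lower) beside 7.09% of genes, and 1 in Des-/- (Ckm, higher) beside 2.66%. The study's call rule, which uses an unadjusted p and a minimum log2 change, was applied to the edgeR results. By it, 2, 2 and 4 of the 8 passed for swimming in Des+/+, swimming in Des-/- and the interaction. The shares of all genes that passed were 10.3%, 8.60% and 13.1%. The 10 cardiomyocyte markers also had positive interaction values, with a median of 1.39.

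Ratios of paralogs within a library do not depend on how libraries are scaled, so the isoforms were also compared with each other, as counts per kilobase of the principal transcript. Such ratios can still depend on the mix of cells in a library, and the part of that mix was not tested. Vdac1 exceeded Vdac2 2.07-fold in Des+/+ non-swim (1.96 to 2.19) and 1.90-fold in Des+/+ swim libraries (1.82 to 1.96). In Des-/- libraries the ratio was 1.35 ± 0.30 (SD, n = 3) without and 1.16 ± 0.22 (SD, n = 3) after swimming, with the lowest values, 1.01 and 0.91, in replicate 3 of both groups. The genotypes did not overlap in either swimming state, and the genotype difference in the log2 ratio was -0.69, a 1.61-fold shift towards Vdac2 (two-sided exact permutation within swimming state, p = 0.005, the smallest that 400 arrangements allow, adjusted p 0.03 over 12 tests). Vdac3 to Vdac2 stayed between 0.56 and 0.77 in all 12 libraries, with a genotype difference of -0.07 (exact permutation p = 0.49, adjusted 0.653). The share of Vdac1 in VDAC transcripts per kilobase was 54.5% ± 2.03 and 52.9% ± 1.19 (SD, n = 3) in Des+/+ non-swim and swim libraries and 44.4% ± 4.72 and 40.5% ± 5.29 (SD, n = 3) in the Des-/- groups. With all annotated exons merged as the length the shares were higher, 73.0%, 71.6%, 63.9% and 60.2%, in the same order of groups.

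Brain-type creatine kinase was higher relative to the muscle type in Des-/- libraries. Ckb was 0.057 to 0.109 of Ckm per kilobase in Des+/+ non-swim and 0.103 to 0.144 in Des+/+ swim libraries. In Des-/- non-swim libraries it was 0.766, 0.288 and 1.99 in replicates 1, 2 and 3, and in Des-/- swim libraries 0.160, 0.211 and 0.388. The fibroblast marker sums of these libraries were 8785, 7960 and 39661 CPM without and 4157, 3638 and 13416 after swimming. Their cardiomyocyte marker sums were 13074, 24704 and 5786 CPM without and 24444, 25553 and 15109 after swimming. The part of the cell mix in this ratio was not tested. The genotypes did not overlap in either state, and the genotype difference in the log2 ratio was 2.08, or 4.23-fold (exact permutation p = 0.005, adjusted p 0.03). Between the swimming changes of the genotypes the log2 ratio differed by -2.17 (exact permutation p = 0.045, adjusted p 0.18). The share of Ckb among the 3 creatine kinases was 3.55% ± 1.15 and 4.39% ± 0.80 (SD, n = 3) in Des+/+ and 27.8% ± 19.0 and 9.25% ± 4.78 (SD, n = 3) in Des-/- libraries, without and after swimming. For the mitochondrial and cytosolic muscle enzymes no shift was detected, with Ckmt2 to Ckm between 1.18 and 1.78 in all 12 libraries and a genotype difference of -0.08 (exact permutation p = 0.47, adjusted 0.653).

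**Figure D3:**
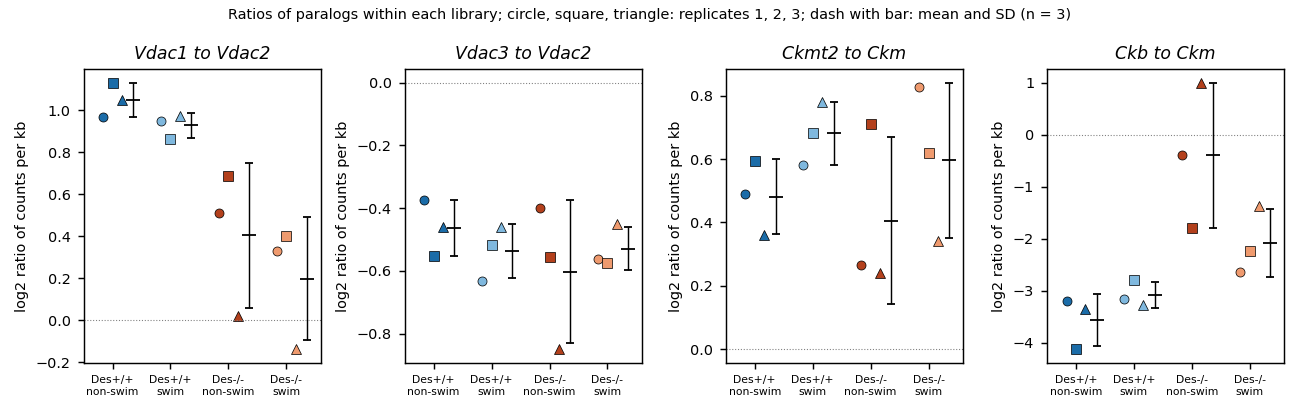
Log2 ratio of counts per kilobase for 4 pairs of paralogs in the 12 libraries; symbols are replicates, and the dash with its bar is the mean and SD (n = 3). Vdac1 to Vdac2 and Ckb to Ckm separate the genotypes without overlap in each swimming state (mean shifts of -0.69 and 2.08), and Vdac3 to Vdac2 and Ckmt2 to Ckm overlap between genotypes; the axes of the panels differ.

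The order of the 8 genes by level per kilobase of principal transcript was led by Ckmt2 and Ckm in all 4 groups. In Des+/+ non-swim libraries Ckmt2 was at 1250 ± 299 and Ckm at 890 ± 170 CPM per kilobase (SD, n = 3), and these overlapped. Vdac1 (449 ± 91.4), Vdac2 (215 ± 31.9) and Vdac3 (156 ± 13.5) followed, each below the range of the one before. Ppif (117 ± 25.3) overlapped Vdac3, and Slc6a8 (75.7 ± 10.7) and Ckb (75.5 ± 14.9) overlapped each other. In Des-/- non-swim libraries the top of this order closed up: Ckmt2 (259 ± 187), Ckm (182 ± 101), Ckb (128 ± 41.8) and Vdac1 (123 ± 32.2) all overlapped. Ckb thus had rank 8 in Des+/+ and rank 3 in Des-/- non-swim libraries, or ranks 7 and 4 with merged exons. After swimming, Ckmt2 (638 ± 216) and Ckm (410 ± 83.6) again lay above all other members in Des-/- libraries, with Vdac1 at 116 ± 27.8 CPM per kilobase.

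Since cardiomyocyte markers fell with most of these genes, each gene was also set against the geometric mean of the 10 markers in the same library, with no test. The share of all genes without overlap on this scale was not computed. Relative to them, Ckm differed by -0.11 and Ckmt2 by -0.18 on the log2 scale between Des-/- and Des+/+ non-swim libraries, with overlap, and Ppif by 0.14 and Vdac1 by 0.47, also with overlap. Vdac2, Vdac3 and Slc6a8 were higher relative to the markers in every Des-/- non-swim library (differences of 1.11, 0.97 and 1.10), and so was Ckb (3.06). Replicate 3 of Des-/- carried much of these means: without it the differences of Vdac2, Vdac3, Slc6a8 and Ckb were 0.59, 0.57, 0.41 and 2.36, and those of Vdac1 and Ppif 0.14 and 0.07. After swimming the relative levels took another order. Ppif and Vdac1 were lower relative to the markers in every Des-/- swim library (-0.77 and -0.52), Ckm was higher in every one (0.30) and so was Ckb (1.30), whereas Vdac2, Vdac3, Ckmt2 and Slc6a8 overlapped (-0.07 to 0.22). Without replicate 3 of Des-/- swim, Ppif, Vdac1, Ckm and Ckb differed by -0.72, -0.51, 0.28 and 0.91, and Slc6a8 by -0.30. When libraries were scaled to the markers in the edgeR fit, the median of all genes moved by 2.51 on the log2 scale without and by 0.82 after swimming. It then stood at 2.55 and 0.84, so the differences of Vdac2, Vdac3 and Slc6a8 without swimming were below that of the median gene. In that fit 4 of 8 members (Vdac2, Vdac3, Ckb and Slc6a8) were called higher without swimming, below the 92.5% of all genes called higher, and after swimming 0 of 8 were called, with 0.403% of all genes. Since that scaling moved nearly all genes, no direction of a member was read from it. The relative levels above rest on the same markers, so they place a member beside those 10 genes and give no direction of its own.

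**Figure D4:**
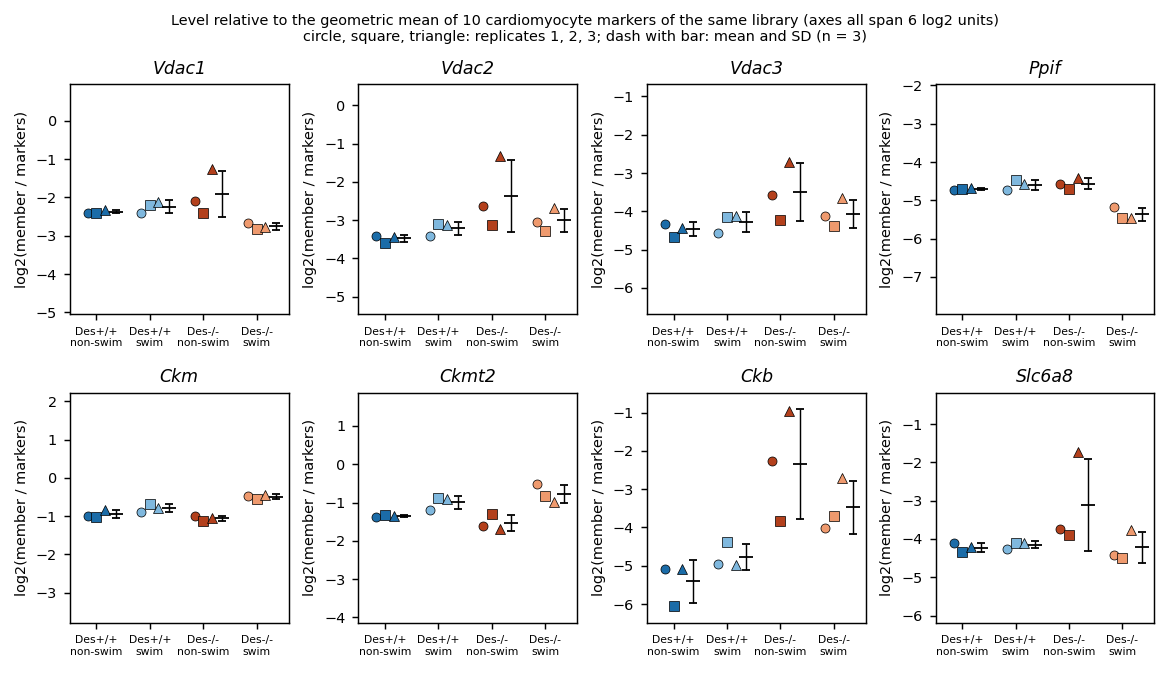
Log2 of the level of each gene over the geometric mean of 10 cardiomyocyte markers of the same library, by group; every axis spans 6 log2 units, symbols are replicates, and the dash with its bar is the mean and SD (n = 3). Ckm lies between -1.13 and -0.44 and Ckmt2 between -1.70 and -0.52 in all libraries, Ckb is 3.06 higher in Des-/- than in Des+/+ non-swim libraries on average, and Ppif and Vdac1 are lowest in the Des-/- swim group.

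The genes whose log2 CPM followed each member most closely over the 12 libraries were also listed, as a description across libraries that share genotype, cell mix and depth. Vdac1 ran closest to Sdhd, a membrane subunit of respiratory complex II (Pearson r 0.999, n = 12), then Hibadh and Pmpcb. Vdac2 and Vdac3 both ran closest to Mtch2, an outer membrane insertase (r 0.988 and 0.990). Ckm ran closest to Macrod1, the ADP/ATP carrier Slc25a4 and Ckmt2 (r 0.991, 0.989 and 0.988), and Ckmt2 to Ckm, Rasl10b and the lipid droplet protein gene Plin5. Ppif ran closest to Nipsnap2, Pln (phospholamban, the regulator of the calcium pump of the sarcoplasmic reticulum and 1 of the 10 cardiomyocyte markers) and Hibch (all r 0.994). Slc6a8 ran closest to the glycolytic gene Pgk1 (r 0.982), followed by Adra1a and Kpna3. The closest genes to Ckb had lower correlations, Spidr, the chemokine gene Ccl8 and Tiam1 (r 0.929, 0.927 and 0.924). After the group means were removed, Ckmt2 and Ppif varied together between libraries (r 0.990), as did Ckm with each of them (r 0.975 for both). Ckm and Slc6a8 did not (r -0.14), and Ckmt2 and Ckb varied oppositely (r -0.87). Differences in cell mix between libraries of a group remain in these values, and their part was not tested.

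Genes that work beside these proteins were counted from fixed lists, for which the same 18.0% and 14.0% of all genes called lower and higher apply without swimming. Genes given with values are the one of smallest p in each list and any called against the majority of its list, and further genes were named after their values were seen. Among the carriers that pass ATP, ADP and phosphate through the inner membrane, 3 of 4 were called lower without swimming and 0 higher (median log2 change -1.24). The phosphate carrier Slc25a3 had the smallest p (-1.70, edgeR adjusted p 0.000969), at 1610 ± 220 CPM in Des+/+ and 495 ± 133 in Des-/- libraries (SD, n = 3), and Slc25a4 and Slc25a5 were the other two. Of 5 adenylate kinases tested, which balance ATP, ADP and AMP, 3 were called lower and 0 higher (median -0.62), with the cytosolic Ak1 at 544 ± 117 against 153 ± 49.8 CPM (SD, n = 3, log2 change -1.83, edgeR adjusted p 0.00119). Ak3 and Ak4 were the others, and Ak5 was below the count filter.

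The creatine synthesis genes had fitted values in the direction opposite to Slc6a8. Of Gatm, Gamt and the ubiquitous mitochondrial kinase Ckmt1, 1 was called higher and 0 lower without swimming (median 1.43). Gamt, which methylates guanidinoacetate to creatine, rose from 10.6 ± 1.87 to 16.7 ± 2.59 CPM (SD, n = 3, log2 change 0.65, edgeR adjusted p 0.0338). Gatm, the first enzyme of the path, was at 8.96 ± 2.93 against 32.4 ± 35.0 CPM (SD, n = 3) and did not pass (log2 change 1.86, edgeR adjusted p 0.0541).

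Known partners of VDAC moved in both directions. Of 13 tested, 4 were called lower and 3 higher without swimming (median 0.13). Cryab, the small heat shock protein αB-crystallin, had the smallest p (log2 change -1.89, edgeR adjusted p 0.000704), at 870 ± 184 against 235 ± 49.0 CPM (SD, n = 3). The mitochondrial chaperone Hspa9 and the hexokinases Hk2 and Hk1, which dock on VDAC, were the other lower genes (-1.60, -1.56 and -0.48). The 3 called higher were the cell death effectors Bax and Bak1 (0.72 and 0.82) and the calcium release channel gene Itpr3 (0.52). After swimming Hk2 and Hspa9 were called lower (-1.25 and -1.01) and 0 partners higher.

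The outer membrane import machinery, which inserts VDAC, had 7 of 12 genes called lower and 0 higher without swimming (median -0.60). Mtx2, a metaxin of the sorting machinery, had the smallest p (log2 change -1.38, edgeR adjusted p 0.000774), at 94.1 ± 5.94 against 36.2 ± 5.77 CPM (SD, n = 3), and Samm50, the core of that machinery, changed by -1.35. Of 11 other cyclophilins, 3 were called higher, Ppia, Ppib and Ppic (0.66, 0.80 and 0.90), and 1 lower, Ppil1 (-0.90, edgeR adjusted p 0.0195, the smallest p of the list). The median log2 change of these 11 was 0.11, beside -2.08 for Ppif. After swimming, when 5.57% of all genes were called lower and 5.01% higher, adenylate kinases, carriers and import genes each had 2 called lower and 0 higher, the cyclophilins had 1 called higher (Ppig), and the creatine synthesis list had 0 called.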

How the data were processed

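Raw counts per gene were deposited, without normalisation. The authors had aligned the reads to GRCm38 with HISAT2 2.2.1 and counted them with HTSeq, in reverse-strand mode per the study's methods. Groups were taken from the sample labels. Gene positions and lengths came from GENCODE M21 and promoters from RefSeq. The 8 genes, the pathway lists and the marker lists were chosen with earlier results of these data known.

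The count test was edgeR 4.0.16 (R 4.3.3). Genes were kept with filterByExpr (13158 genes), libraries were scaled by TMM, and the 12 libraries entered 1 fit with 4 group means (common biological coefficient of variation 0.271). The 5 contrasts, tested by quasi-likelihood, were genotype in each swimming state, swimming for each genotype, and their interaction. Calls required a Benjamini-Hochberg adjusted p under 0.05 over all genes tested. The SE of a log2 change was its size divided by the square root of the F statistic. Log2 CPM for correlations used a prior count of 2. For paralog ratios a two-sided exact permutation test within strata was used (400 arrangements), adjusted over 12 tests. Named genes were all 8 members, the gene of smallest p in each pathway list for genotype without swimming and those called against the majority of their list, and for each member the 3 genes of highest Pearson r. The result of 1 pathway list is not reported here. The script was tested on simulated counts.

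Alternatives were DESeq2 1.42.0, other scalings and filters, the study's call rule (unadjusted p of at most 0.05, absolute log2 change of at least 0.6, mean count of at least 20), a replicate block, fits of the 6 libraries compared, and leaving out libraries; leaving out replicate 3 of Des-/- from the levels relative to markers was chosen after seeing the data. The study's call rule was applied here to the edgeR results, whereas the study applied it to those of DESeq2. Replicate numbers were checked for pairing. The deviations of same-numbered libraries correlated at 0.316 to 0.602 between the Des-/- groups and at -0.410 to 0.134 in the other comparisons. In the Des-/- groups, replicates 1 and 2 also correlated across unlike numbers (0.299 and 0.292, against 0.365 and 0.316 for like ones). Replicate 3 did not (-0.470 to -0.414), so the numbers need not mark pairs. The main fit and the permutation tests were unpaired, and only the replicate block paired libraries by number. A count of 3, taken as the floor for counting error, was worth at most 0.694 CPM in any library.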

Additional observations from a re-analysis of the deposited data

Results flagged for a closer look

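The levels of Ckm differed in opposite directions with swimming in the genotypes: all 3 Des+/+ swim libraries (1303 to 1834 CPM) lay below the Des+/+ non-swim libraries (1941 to 2864 CPM), and all 3 Des-/- swim libraries (859 to 1258 CPM) lay above the Des-/- non-swim libraries (224 to 778 CPM). Of all genes, 31.3% had no overlap in Des+/+ and 19.4% in Des-/-. Neither swimming change of Ckm was called (edgeR adjusted p 0.370 and 0.203). The log2 difference between the swimming changes was 1.78, and the edgeR interaction test did not call it (adjusted p 0.199 over all genes, and 0.0308 to 0.442 over the alternatives other than the marker scaling, with a value between 1.43 and 2.25). All 10 cardiomyocyte markers also had negative fitted values in Des+/+ and positive ones in Des-/- (medians -0.79 and 0.62, 0 called). Of the listed pathway genes, Cryab, Samm50 and Mtx1 had no overlap in either genotype either, with the same signs as Ckm. The share of all genes with this joint pattern was not computed.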

How the results depend on the processing

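Scaling libraries to the cardiomyocyte markers moved the median of all genes by 2.51 without and 0.82 after swimming, so no direction of a member was read from it. Without swimming it gave 4 members called, all higher, beside 92.5% of all genes called higher, and turned the log2 changes of Vdac1 to 0.55, Vdac2 to 1.32, Vdac3 to 1.10, Slc6a8 to 1.46 and Ppif to 0.15. After swimming it gave 0 members called, with Vdac2 at 0.23, Vdac3 at 0.24, Ckm at 0.30 and Ckmt2 at 0.22. For swimming in Des+/+ it gave Vdac1 0.15, Vdac2 0.27, Vdac3 0.20, Ckm 0.16, Ckmt2 0.36, Ckb 0.60, Slc6a8 0.070 and Ppif 0.12, and in Des-/- Vdac2 -0.83 and Vdac3 -0.66. For the interaction it gave Vdac1 -1.07, Vdac2 -1.09, Vdac3 -0.86, Slc6a8 -1.49 and Ppif -0.91. Upper-quartile scaling moved the share of higher calls among all genes from 43.7% to 55.1% without and from 47.3% to 67.5% after swimming, and left 8 and 4 members called.

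After swimming, fitting the 6 compared libraries alone called 3 members, and leaving out 1 library gave 0 to 5. DESeq2 called 1 member for swimming in Des+/+, 1 for swimming in Des-/- and 2 for the interaction, and the study's rule called 2, 2 and 4, beside 7.09%, 2.66% and 3.96% of genes by DESeq2 and 10.3%, 8.60% and 13.1% by the study's rule. With the replicate block 8 members were called without swimming and 4 after it (Vdac2 was lost), and 0 in the other contrasts, including swimming in Des-/-. Leaving out 1 library moved the swimming change from -0.28 to 0.0041 for Ckb in Des+/+, and in Des-/- from -0.22 to 0.14 for Vdac1 and from -0.43 to 0.31 for Ppif. It moved the swimming change of the log2 ratios of Vdac1 to Vdac2 from -0.26 to -0.080, of Vdac3 to Vdac2 from -0.062 to 0.050 and of Ckmt2 to Ckm from 0.14 to 0.27. It moved the difference between the swimming changes from -0.28 to 0.084 for Vdac1 to Vdac2, from -2.87 to -1.48 for Ckb to Ckm and from -0.13 to 0.14 for Ckmt2 to Ckm. The genotype differences of Vdac1 to Vdac2 and Ckb to Ckm kept their direction in all 12 such fits, at -0.76 to -0.59 and 1.73 to 2.43, with exact permutation p-values up to 0.01 and 0.015. Where a value changed, the cause was not tested.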
